A study of Mus musculus with 24 samples.

Results

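The nuclear-encoded subunits of the respiratory chain and ATP synthase were followed through 24 QuantSeq libraries of mouse lymphoid progenitors. A gene was counted as a subunit when its row was typed as protein-coding in both value tables and its symbol began with *Nduf* and a letter a, b, c, s or v followed by a digit, was *Sdha* to *Sdhd*, or began with *Uqcr*, *Cox4* to *Cox8* or *Atp5*. This gave 87 of 55487 gene rows, of which 21936 were protein-coding: 36 of complex I, 4 of complex II, 8 of complex III, 21 of complex IV and 18 of complex V, with *Ndufa4* and *Ndufa4l2* counted under complex IV. A further 15 rows with such symbols were not protein-coding and were left out. All libraries were labelled Cas9-LP, fetal liver-derived lymphoid progenitors (LPs) that lack the B-lineage factor *Ebf1* and carry Cas9 at *Rosa26*, grown with SCF, Flt3L and IL-7. Retrovirus with human NGFR as a marker delivered guide RNAs, pooled for each gene, and hNGFR+CD45+ cells were sorted 5 days later. Experiment 1 held LPs on mitomycin C-treated OP9 stroma and Notch-stimulated Phase 1 cells on OP9-DLL4 stroma. Each had control guides against luciferase (sgControl) or guides against *Cbfb* (sgCbfb), the partner of all RUNX factors. Experiment 2 held LPs on OP9 with sgControl, sgCbfb, sgCTCF against the chromatin insulator gene *Ctcf*, or sgMed12 against *Med12* of the Mediator kinase module. Each of the 8 groups had 3 libraries. The methods call replicates biologically independent but do not say whether they came from different lines or transductions, so p-values measure the spread between these libraries.

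The respiratory chain sits in the inner mitochondrial membrane. Complex I (NADH dehydrogenase) and complex II (succinate dehydrogenase) feed electrons to complex III (cytochrome bc1), cytochrome c carries them to complex IV (cytochrome c oxidase), and complex V (ATP synthase) uses the proton gradient to make ATP. A few core subunits are encoded in mitochondrial DNA and most others in the nucleus. Some complex IV subunits exist as paired isoforms, one made in most tissues and one made mainly in heart and skeletal muscle, lung or testis.

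Values are CPM, reads of a gene scaled to all reads on genes, from 1363263 to 1743319 reads a library in experiment 1 and 3354483 to 4326782 in experiment 2. Of the 87 subunits, 79 passed the filter on low values (at least 1 CPM in at least 3 libraries) in experiment 1 and 78 in experiment 2. A subunit was said to rise or fall at an adjusted p under 0.05 in limma on log2(CPM + 1), and to be called when the log2 ratio of group means was also beyond 1 with a mean over 10 CPM. Guide targets were checked first: *Cbfb* mRNA fell from 86.5 to 40.2 CPM in LPs of experiment 1 (adjusted p = 0.0055) and from 114 to 48.4 CPM in experiment 2 (adjusted p = 4.3e-06), while Phase 1 cells had 53.9 CPM of it under sgCbfb and 66.5 CPM under sgControl (adjusted p = 0.59). *Ctcf* fell from 391 to 306 CPM (adjusted p = 0.021). *Med12* was 9.61, 3.20 and 8.23 CPM in the libraries labelled sgMed12 and 6.59, 4.43 and 4.38 CPM in their controls (adjusted p = 0.66), so its mRNA did not check those labels. At the protein level, the study ran immunoblots for CBFβ, CTCF and MED12 after these guides in LPs. It reported that CBFβ protein was lost. The 6 progenitor markers (*Ptprc*, *Kit*, *Flt3*, *Il7r*, *Cd34*, *Spi1*) were present in every group and summed to 1096 to 1952 CPM. Phase 1 sgControl replicate 3 and sgMed12 replicate 2 stood apart from the other libraries of their groups, and results that rest on them are given with and without them. Of the sgMed12 libraries, replicate 2 was nearest to the controls in summed subunits and in mitochondrial reads. Which of these libraries is typical of sgMed12 cannot be told, so a fit without replicate 2 is not a cleaner result.

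*Cox6a2*, the muscle and heart isoform of complex IV subunit VIa, was the one subunit that changed with both Notch stimulation and loss of *Cbfb*. Its partner *Cox6a1* is the isoform made in most tissues. *Cox6a2* lies at chr7:128205435-128206387 and *Cox6a1* at chr5:115345642-115348981 (GRCm38, both on the minus strand). The last 120 coding bases of both genes from GENCODE M21 are shown because the 2 mRNAs were counted apart, with capitals at the 33 bases that differ and 87 identical bases in lower case.
Cox6a2: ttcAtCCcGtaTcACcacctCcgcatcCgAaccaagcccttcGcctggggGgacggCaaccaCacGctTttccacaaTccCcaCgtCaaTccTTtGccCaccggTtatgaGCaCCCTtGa
Cox6a1: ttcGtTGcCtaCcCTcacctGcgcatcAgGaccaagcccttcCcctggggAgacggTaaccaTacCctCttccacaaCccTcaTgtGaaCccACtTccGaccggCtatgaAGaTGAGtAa
Over the whole coding sequences the 2 genes share 192 of 339 aligned bases (56.6%). Exons of *Cox6a2* overlap those of *Itgad*, an integrin gene on the other strand, by 70 bases, and *Itgad* had no more than 5.37 CPM in any library.

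In LPs of experiment 1, *Cox6a2* was at 606, 621 and 541 CPM with sgControl and at 163, 185 and 165 CPM with sgCbfb. The groups lay far apart, and *Cox6a2* fell by 71.0% (log2 fold change -1.78 ± 0.14 SE, adjusted p = 2.2e-08). It was the 1 of 79 subunits that fell, none rose, and it was also called; among all 13239 genes 1.09% fell, 1.76% rose and 1.69% were called. The median log2 fold change was -0.10 over the subunits and 0.00 over all genes.

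In Phase 1 cells, *Cox6a2* was at 197, 226 and 166 CPM with sgControl, so it fell by 66.7% from LPs with the same guide (log2 fold change -1.59 ± 0.14, adjusted p = 4.4e-08). With sgCbfb in Phase 1 it was at 119.9, 152 and 127 CPM, still without overlap, and it fell by 32.3% (log2 fold change -0.56 ± 0.14, adjusted p = 0.014). This smaller change was lost when only the Phase 1 groups were fitted (adjusted p = 0.077) and without Phase 1 sgCbfb replicate 1 (0.089), sgCbfb replicate 3 (0.071) or sgControl replicate 2 (0.078). The sgCbfb effect was weaker in Phase 1 cells than in LPs, with a difference of 1.22 ± 0.19 on the log2 scale (adjusted p = 0.0012). The targeted *Cbfb* mRNA itself was 53.9 against 66.5 CPM in Phase 1 cells (adjusted p = 0.59) and 40.2 against 86.5 CPM in LPs (adjusted p = 0.0055), and its part was not tested. Without Phase 1 sgControl replicate 3, the lowest of its group, *Cox6a2* was at -1.47 for Notch stimulation, -0.67 for sgCbfb in Phase 1 cells (adjusted p = 0.00028) and 1.11 for the difference (adjusted p = 2.9e-05).

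**Figure D1:**
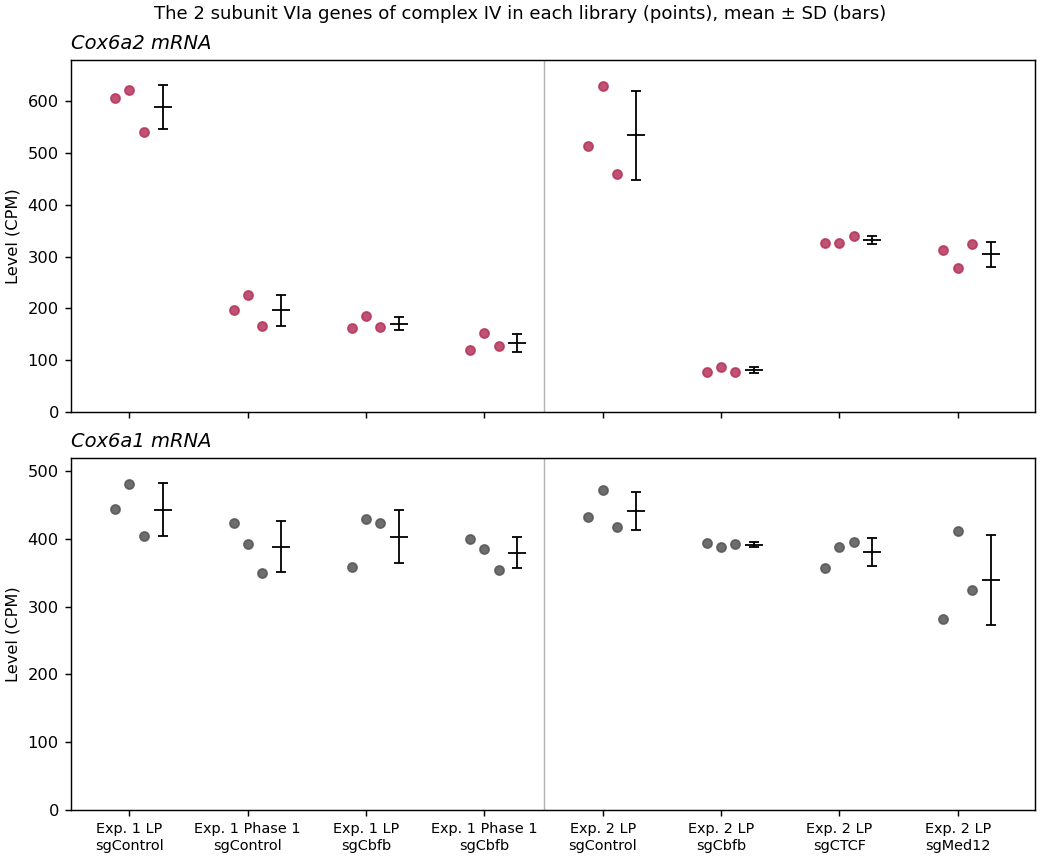
Levels of *Cox6a2* (top) and *Cox6a1* (bottom) in CPM in each library (points) of the 8 groups, with mean ± SD beside them. *Cox6a2* is at 541 to 621 CPM in sgControl LPs of experiment 1 and at 77.8 to 87.7 CPM in sgCbfb LPs of experiment 2, while *Cox6a1* stays between 282 and 481 CPM in all libraries.

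Experiment 2 gave the same contrast in other libraries. *Cox6a2* was at 513, 629 and 460.5 CPM with sgControl and at 77.8, 87.7 and 78.1 CPM with sgCbfb, so it fell by 84.8% (log2 fold change -2.69 ± 0.11, adjusted p = 1.5e-15). With sgCTCF it was at 327, 327 and 340.4 CPM, so it fell by 37.9% (log2 fold change -0.67 ± 0.11, adjusted p = 0.00015). The libraries labelled sgMed12 had 312, 277 and 325 CPM, so it fell by 43.0% (log2 fold change -0.80 ± 0.11, adjusted p = 0.00015). None of the 3 groups overlapped sgControl. Compared with sgCbfb directly, *Cox6a2* was higher with sgCTCF (log2 difference 2.02, adjusted p = 3.3e-13) and with sgMed12 (1.89, adjusted p = 1.8e-12), whereas sgMed12 and sgCTCF did not pass a test against each other (-0.12 ± 0.11, adjusted p = 0.45). Except for sgCbfb in Phase 1, each change of *Cox6a2* given here as passing also passed under each of the 9 other settings (8 for the difference between stages, which needs all groups) and without each of the 12 libraries of its experiment.

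*Cox6a1* did not pass with sgCbfb, with sgCTCF or between stages, at log2 fold changes of -0.21 to -0.03 and adjusted p of 0.26 to 0.93, although in experiment 2 its sgCbfb and sgCTCF libraries all lay below the controls. *Cox6a2* reads made up 56.3% to 57.7% of the reads of both genes in sgControl LPs of experiment 1 and 28.0% to 31.3% with sgCbfb. In Phase 1 cells the share was 31.7% to 36.6% with sgControl and 23.1% to 28.3% with sgCbfb. In experiment 2 it was 52.5% to 57.2% with sgControl, 16.5% to 18.5% with sgCbfb and 45.8% to 47.8% with sgCTCF, so each of these groups lay below its LP control. The sgMed12 libraries had 52.5%, 40.3% and 50.0%, with *Cox6a1* lower in replicates 1 and 3.

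Other cell markers moved along with *Cox6a2* in sgCbfb cells. The 6 myeloid markers (*Lyz2*, *Csf1r*, *Cd14*, *Mrc1*, *F13a1*, *Itgam*) summed to 22.5 to 44.3 CPM in sgControl LPs of experiment 1 and 399 to 482 CPM with sgCbfb, and to 20.7 to 23.7 CPM and 648 to 713 CPM in experiment 2, with 4 of 6 genes above 0 in the controls, 5 of 6 with sgCbfb and *Cd14* at 0 throughout. With sgCTCF and sgMed12, where *Cox6a2* also fell, their sum was 19.8 to 22.4 and 20.9 to 29.1 CPM. In Phase 1 cells it was 27.1 to 42.5 CPM with sgControl and 309 to 323 CPM with sgCbfb, with 5 of 6 genes above 0 in each. The 6 Phase 1 markers (*Tcf7*, *Gata3*, *Il2ra*, *Dtx1*, *Hes1*, *Notch3*) summed to 37.8 to 54.9 CPM in sgControl LPs, 68.3 to 79.9 CPM in sgCbfb LPs, 808 to 951 CPM in sgControl Phase 1 cells and 320 to 347 CPM in sgCbfb Phase 1 cells of experiment 1, with 6 of 6 genes above 0. In experiment 2 their sum was 23.9 to 30.1 CPM with sgControl, 41.1 to 77.0 CPM with sgCbfb, 56.8 to 61.7 CPM with sgCTCF and 42.1 to 54.5 CPM with sgMed12, higher than the controls in every library. There 5 of 6 genes were above 0, with *Tcf7* at 0 with sgCbfb and *Dtx1* at 0 in the other groups. The 6 stromal markers (*Col1a1*, *Col1a2*, *Col3a1*, *Dcn*, *Pdgfrb*, *Sparc*) summed to at most 39.8 CPM, with *Col3a1* and *Dcn* at 0 in all groups. The part of these cells in the fall of *Cox6a2* was not tested, and in bulk libraries fewer cells that make a transcript and less of it per cell cannot be told apart.

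Few other subunits passed with sgCbfb. In LPs of experiment 1, the 15 subunits followed in every comparison (the 4 succinate dehydrogenase subunits, *Ndufs1*, *Ndufv1*, *Ndufa4*, *Uqcrfs1*, *Uqcrc1*, *Uqcrc2*, *Cox4i1*, *Cox5a*, *Cox5b*, *Atp5a1* and *Atp5b*) had log2 fold changes from -0.98 (*Sdhd*, adjusted p = 0.42) to 0.31 (*Uqcrc2*, adjusted p = 0.51). In Phase 1 cells they lay between -0.22 (*Ndufa4*, adjusted p = 0.71) and 0.81 (*Uqcrfs1*, adjusted p = 0.063). There *Cox6a2* was the 1 of 79 subunits that fell and none rose, against 2.6% and 3.37% of all genes, and it was below the threshold for a call. Without Phase 1 sgControl replicate 3, 2 fell (*Cox6a2* and *Ndufa6*, -0.46) and 1 rose (*Cox7a2*, 0.43), against 2.9% and 3.42% of all genes. Over the subunits the median was 0.09, and 0.06 over all genes. For the difference between the stages 1 of 79 subunits passed in the higher direction, *Cox6a2*, and none in the lower, against 0.612% and 0.657% of all genes, with medians of 0.21 and 0.06.

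In experiment 2, 2 of 78 subunits fell with sgCbfb and none rose, against 5.57% and 6.91% of 13177 genes. *Cox6a2* was the 1 called, against 4.33% of all genes. The other was *Cox8a*, a small structural subunit of complex IV, with 271, 265 and 256 CPM in the controls and 202, 175 and 191 CPM with sgCbfb (log2 fold change -0.48 ± 0.14, adjusted p = 0.019). Its groups did not overlap. Small differences below 0 were common: 67 of 78 subunits had a log2 fold change below 0, a share not counted over all genes here. Complex II had 2 below and 2 above 0. The medians were -0.12, -0.08, -0.12, -0.15 and -0.15 for complexes I to V. In 26 of 78 subunits all sgCbfb libraries lay below all controls, as did 15.0% of all genes. Of the 15 followed subunits *Cox5a*, next to the haem-bearing core of complex IV, had the lowest value (-0.31, adjusted p = 0.19). Without sgMed12 replicate 2 in the fit, whose spread is shared by all groups, 7 of 78 fell and none rose (7.72% and 8.46% of all genes): *Cox6a2* and *Cox8a* with *Cox5a*, *Cox6b1*, *Ndufa1*, *Atp5g1* and *Atp5md*, at -0.48 to -0.31 apart from *Cox6a2*.

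**Figure D2:**
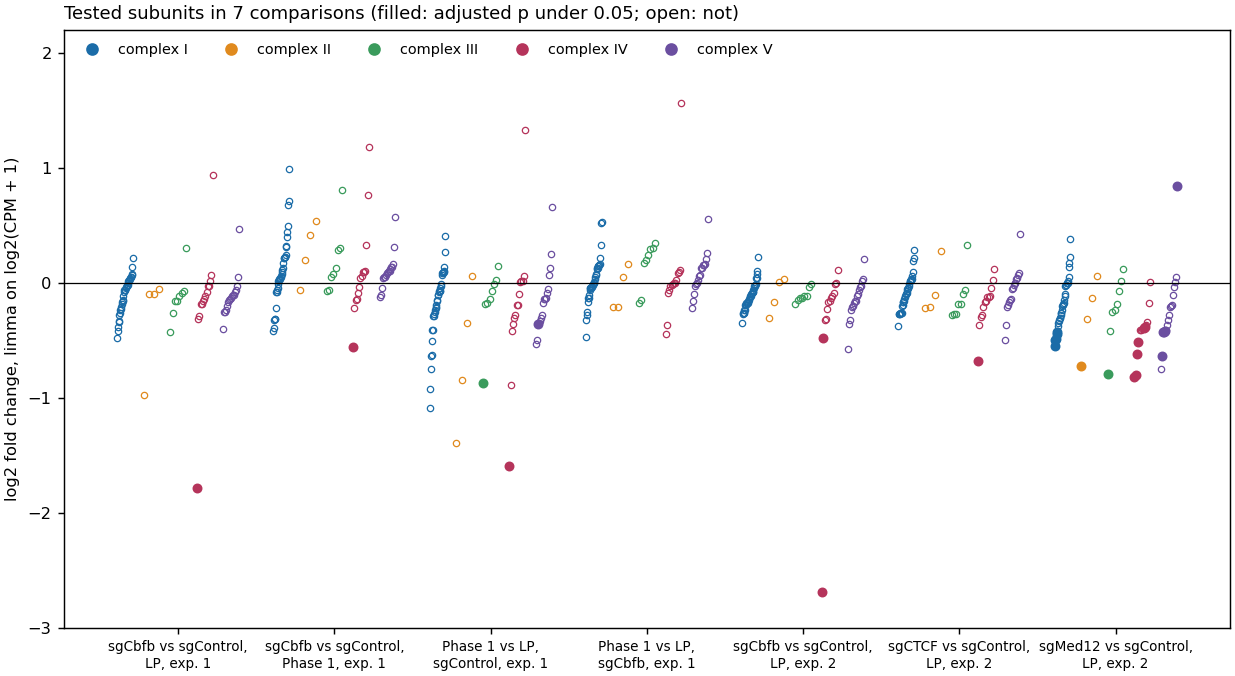
limma log2 fold change (y axis, log2(CPM + 1) scale) of each tested subunit in the 4 comparisons of experiment 1 and the 3 comparisons with sgControl of experiment 2, coloured by complex, with filled points at an adjusted p under 0.05. *Cox6a2* is the low filled point at -1.78 and -2.69 with sgCbfb in LPs, and 17 filled points lie below 0 with sgMed12.

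Notch stimulation was compared between Phase 1 cells and LPs. With sgControl, 3 of 79 subunits fell and none rose (3.23% and 3.26% of all genes), and 1, *Cox6a2*, was called (3.39%). The median was -0.15 over the subunits and -0.07 over all genes. *Uqcrfs1*, the Rieske iron-sulphur protein of complex III, was at 86.8, 89.2 and 89.3 CPM in LPs and at 47.3, 78.7 and 29.3 CPM in Phase 1 cells (log2 fold change -0.87 ± 0.25, adjusted p = 0.041). *Atp5b*, the catalytic beta subunit of ATP synthase, was at 580.2, 611 and 548 CPM and at 469, 477 and 414 CPM (log2 fold change -0.36 ± 0.11, adjusted p = 0.047). Neither overlapped between stages, yet both were lost without any 1 of 10 of the 12 libraries. Phase 1 sgControl replicate 3 was lowest for both, and without it 3 fell and none rose (3.24% and 3.53% of all genes), namely *Cox6a2* (-1.47), *Atp5d* (-0.45) and *Cox7a2* (-0.38). Of the other followed subunits, *Sdhd*, a membrane anchor of succinate dehydrogenase, was lowest at -1.39 (adjusted p = 0.085) and *Sdha*, its flavin-bearing catalytic subunit, highest at 0.06 (adjusted p = 0.87). With sgCbfb, limma passed 0 of 79 subunits in either direction (0.959% of all genes fell and 1.28% rose). At an unadjusted p under 0.05, a count not made over all genes, 2 were lower and 4 higher, and edgeR also passed 0. *Cox6a2* was -0.36 ± 0.14 there (adjusted p = 0.23), with the followed subunits between -0.21 (*Sdhc*, adjusted p = 0.89) and 0.20 (*Uqcrfs1*, adjusted p = 0.85).

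Phase 1 sgControl replicate 3 carried values for individual subunits that its partner libraries did not. It was the lowest of the 12 libraries of experiment 1 for 25 of 79 subunits and the highest for 10. LP sgCbfb replicate 1 was lowest for 16, and LP sgControl replicate 2 was highest for 19. These counts were not made over all genes. *Ndufa1*, an accessory subunit of complex I, was at 122 and 114 CPM in Phase 1 sgControl replicates 1 and 2 and at 8.80 CPM in replicate 3. *Ndufb3*, of the membrane arm of complex I, went from 145 and 119 to 14.7 CPM, and *Ndufb1-ps* from 167 and 130.3 to 17.6 CPM.

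The same held in other complexes. *Cox7c*, a small complex IV subunit, was at 371, 326 and 49.1 CPM in replicates 1 to 3, and *Sdhc*, the other membrane anchor of complex II, at 74.8, 63.2 and 16.1 CPM. *Ndufa10* went the other way, at 184, 189.7 and 296 CPM, as did *Ndufa2* at 194, 187 and 333 CPM. The mitochondrially encoded *mt-Cytb* was at 853 CPM there and at 2442 and 2553 CPM in its partners. GC content of the last 300 transcript bases moved with these values. Each library was set against the mean of the other Phase 1 sgControl libraries, over 75 subunits with a mean over 10 CPM. The Spearman rho between GC content and this difference was 0.49 in replicate 3 and -0.34 and -0.42 in replicates 1 and 2. Over 7781 genes it was 0.22, -0.16 and -0.13. The 28 subunits under 45% GC had a median difference of -0.40 in replicate 3 and the 47 others 0.13. The points of each rho share one library. Replicate 3 was also part of the reference for replicates 1 and 2, so their opposite sign is not independent of it. The part of GC content was not tested.

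**Figure D3:**
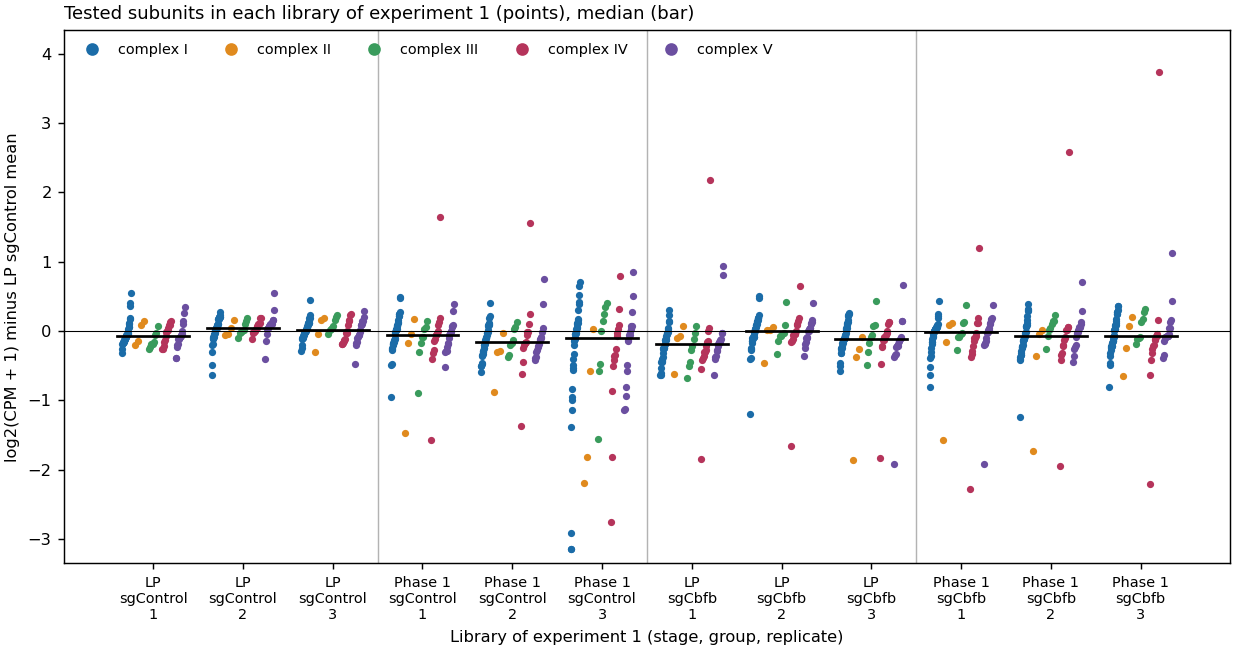
Each tested subunit in each library of experiment 1, as log2(CPM + 1) minus the mean of the LP sgControl libraries (y axis), coloured by complex, with the median as a bar. Phase 1 sgControl replicate 3 reaches furthest down, with *Ndufa1*, *Ndufb3* and *Ndufb1-ps*, and *Cox6a2* is low in every Phase 1 and sgCbfb library.

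With sgCTCF, *Cox6a2* was the 1 of 78 subunits that fell and none rose, against 4.2% and 6.13% of all genes. With only sgCTCF and sgControl in the fit, 15 fell and 3 rose, against 8.33% and 10.1% of all genes. The followed subunits ranged from -0.36 (*Ndufa4*, adjusted p = 0.24) to 0.33 (*Uqcrfs1*, adjusted p = 0.2). Low libraries were common all the same: in 30 of 78 subunits all sgCTCF libraries lay below all controls, as did 15.1% of all genes. In 6 of 78 all lay above the controls, a direction not counted over all genes. The median was -0.11 against -0.02. Without sgMed12 replicate 2 in the fit, 7 of 78 fell and 3 rose (6.74% and 8.13% of all genes). Those that fell were *Cox6a2*, *Ndufa5*, *Atp5g1*, *Cox7b*, *Uqcrh*, *Cox8a* and *Uqcrc1*, at -0.67 to -0.27, and those that rose were *Uqcrfs1*, *Ndufa11* and *Sdhb*, at 0.28 to 0.33.

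With sgMed12, 17 of 78 subunits fell and 1 rose in the fit of all 4 groups, against 4.7% and 2.53% of all genes, and none was called. The count depended on the fit. In either direction 3 passed with only sgMed12 and sgControl in the fit (1.15% of all genes), 5 with no filter on low values (1.5%) and 11 with edgeR (5.97%). Without sgControl replicates 1, 2 and 3 in turn, 4, 7 and 7 passed (3.02%, 2.25% and 2.86% of all genes). By complex, 5 of 36 fell in complex I, 1 of 4 in complex II, 1 of 8 in complex III, 6 of 13 in complex IV and 4 of 17 in complex V. Of the 78, 65 had a log2 fold change below 0, as did 52.1% of all genes, and the median was -0.26 against -0.02. The complex medians were -0.19, -0.22, -0.20, -0.40 and -0.28. All sgMed12 libraries lay below all controls for 17 subunits, against 11.9% of all genes, where the same count was 26 with sgCbfb and 30 with sgCTCF.

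*Cox8a* was at 271, 265 and 256 CPM with sgControl and at 122, 209 and 129.7 CPM with sgMed12 (log2 fold change -0.82 ± 0.14, adjusted p = 0.0011). *Uqcrfs1* was at 84.7, 89.2 and 88.9 CPM and at 40.1, 69.2 and 45.1 CPM (log2 fold change -0.79 ± 0.15, adjusted p = 0.0036). In both, replicate 2 was nearest to the controls and no library overlapped them. With *Cox6a2*, these were the 3 that passed under every other setting and without every single library. *Sdhc* was at 92.0, 86.8 and 89.6 CPM and at 40.7, 83.1 and 46.3 CPM (log2 fold change -0.72 ± 0.17, adjusted p = 0.014), with replicate 2 just under the controls.

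Subunits of complexes I, IV and V followed. *Atp5g3*, one of the genes for the membrane ring of ATP synthase, was at 956, 924 and 1057 CPM and at 484, 961 and 538 CPM (log2 fold change -0.63 ± 0.16, adjusted p = 0.018), and here replicate 2 overlapped the controls. The catalytic-head genes *Atp5a1* (log2 fold change -0.42, adjusted p = 0.022) and *Atp5b* (-0.42, adjusted p = 0.032) fell too, as did *Atp5pb* of the stator stalk (-0.42, adjusted p = 0.016). In complex IV *Ndufa4* (-0.62, adjusted p = 0.038), *Cox7c* (-0.51, adjusted p = 0.015), *Cox6a1* (-0.39, adjusted p = 0.034) and *Cox6b1* (-0.39, adjusted p = 0.034) fell. The complex I genes were *Ndufb6*, *Ndufb3*, *Ndufc2*, *Ndufb5* and *Ndufa6*, accessory subunits at -0.55 to -0.42. The catalytic subunits *Ndufs1* (-0.17, adjusted p = 0.39) and *Ndufv1* (-0.00, adjusted p = 1.0) of complex I did not pass, nor did *Uqcrc1* (0.12, adjusted p = 0.49), *Uqcrc2* (-0.07, adjusted p = 0.74), *Cox5a* (-0.40, adjusted p = 0.09) and *Cox4i1* (-0.17, adjusted p = 0.25). The 1 that rose was *Atp5l*, a membrane subunit of ATP synthase with few reads, at 7.12, 10.3 and 13.4 CPM with sgControl and 20.9, 15.7 and 20.2 CPM with sgMed12 (log2 fold change 0.85 ± 0.25, adjusted p = 0.043).

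The 3 sgMed12 libraries did not share one level. All subunits together summed to 11576 and 12407 CPM in replicates 1 and 3 and to 15433 CPM in replicate 2, where the controls had 15683 to 15971 CPM. Of 78 subunits, 64 and 59 lay below every control in replicates 1 and 3 and 22 in replicate 2, with median differences of -0.44, -0.36 and -0.01. Counted the same way, sgCbfb replicates 1 to 3 had 39, 57 and 46, and sgCTCF replicates 44, 52 and 36. Their median differences were -0.18 to -0.07. These counts were not made over all genes. Replicates 1 to 3 of sgMed12 were the lowest of the 12 libraries of experiment 2 for 39, 2 and 10 subunits. *Cox6a2* broke the order of the sgMed12 libraries, with its lowest sgMed12 value of 277 CPM in replicate 2.

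Genes of the mitochondrial genome took 13.7% and 11.2% of the reads in sgMed12 replicates 1 and 3, 8.44% in replicate 2 and 6.76% to 8.15% in the other libraries of experiment 2. Scaled to the reads of nuclear genes alone, the subunits summed to 13409, 16856 and 13969 CPM in replicates 1 to 3 and 17053 to 17266 CPM in the controls, and 13 fell and 1 rose when the mitochondrial genes were left out of the total, against 3.33% and 2.94% of all genes. GC content of the last 300 bases also moved with the difference, with a rho over 75 subunits of 0.43, 0.11 and 0.37 in replicates 1 to 3 (0.07, 0.06 and 0.01 over all genes), where sgCbfb and sgCTCF libraries gave -0.23 to 0.09. The 28 subunits under 45% GC had medians of -0.63, -0.02 and -0.47, and the 47 others -0.40, -0.00 and -0.25. The part of either in the difference was not tested. Without replicate 2, 47 of 78 subunits fell and 2 rose (13.5% and 8.13% of all genes): 17 of complex I, 2 of complex II, 5 of complex III, 11 of complex IV and 12 of complex V fell, with a median of -0.42. *Cox8a* (-1.06), *Sdhc* (-1.03) and *Uqcrfs1* (-1.02) were then called. Without replicate 1 or without replicate 3, 3 fell and none rose, where 1.95% and 1.43% of all genes passed in either direction.

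**Figure D4:**
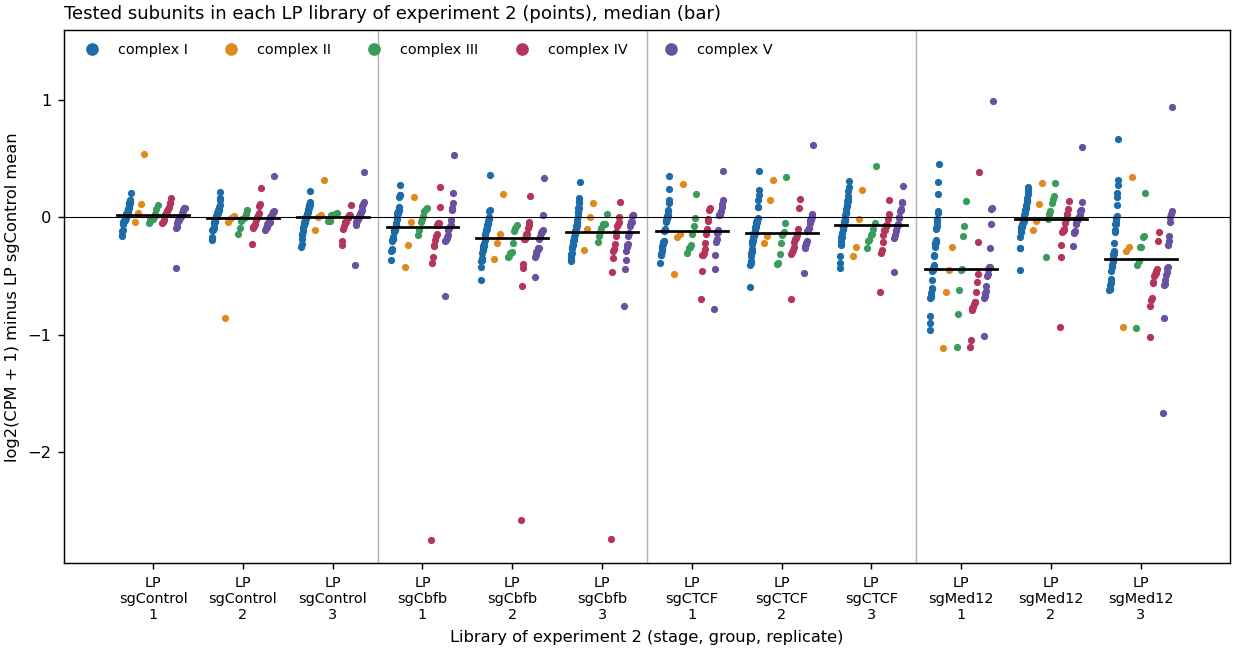
Each tested subunit in each library of experiment 2, as log2(CPM + 1) minus the mean of the sgControl libraries (y axis), coloured by complex, with the median as a bar. The medians are -0.44, -0.01 and -0.36 in sgMed12 replicates 1 to 3, and *Cox6a2* is the lowest point of each sgCbfb library.

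The guides were also compared with each other. Between sgCTCF and sgCbfb, 7 of 78 subunits were higher with sgCTCF and none lower (11.5% and 10.9% of all genes), and 1, *Cox6a2*, was called (6.87%). *Uqcrfs1* was at 101, 112 and 119 CPM with sgCTCF and 86.7, 69.5 and 84.1 CPM with sgCbfb (log2 difference 0.46, adjusted p = 0.03). *Sdhb*, the iron-sulphur subunit of complex II, was at 249.6, 256 and 242 CPM and 200.03, 159.8 and 192 CPM (0.44, adjusted p = 0.0046). The others were *Cox5a*, *Ndufa11*, *Ndufa13* and *Atp5h*, at 0.33 to 0.44, and in all 7 the groups did not overlap. Followed subunits that did not pass lay between -0.25 (*Sdhd*) and 0.14 (*Ndufv1*).

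Between sgMed12 and sgCbfb, 6 of 78 were lower with sgMed12 and 1 higher (9.77% and 7.03% of all genes), with *Cox6a2* the 1 called (4.48%). The largest falls were *Uqcrfs1* (-0.66, adjusted p = 0.003), *Ndufb3* (-0.60, adjusted p = 0.00058) and *Cox7a2* (-0.53, adjusted p = 0.0079), followed by *Atp5g3*, *Cox7c* and *Atp5pb*. With mitochondrial genes left out of the total, 4 were lower and 3 higher (8.26% and 8.58% of all genes), and 5 and 2 with median-of-ratios scaling (8.73% and 7.94%). Without sgMed12 replicate 2, 37 were lower and 5 higher (15.6% and 10.6% of all genes). Followed subunits that did not pass ranged from -0.42 (*Sdhc*) to 0.24 (*Uqcrc1*).

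Between sgMed12 and sgCTCF, 13 of 78 were lower with sgMed12 and 1 higher (11.9% and 8.09% of all genes), and 1 was called (4.01%). This was *Uqcrfs1*, at 40.1, 69.2 and 45.1 CPM against 101, 112 and 119 CPM, so it fell by 53.4% (log2 difference -1.12 ± 0.15, adjusted p = 1.2e-05). *Cox8a* (-0.55, adjusted p = 0.0061) and *Cox5a* (-0.53, adjusted p = 0.013) came next, and *Sdhc* and *Sdhb* of complex II were also lower (-0.51 and -0.41). The one subunit that was higher was *Uqcrc1*, a core protein of complex III, at 205, 189.5 and 215 CPM against 151, 149.5 and 162 CPM (0.39, adjusted p = 0.0062), so within complex III one subunit was lower and another higher. Without sgMed12 replicate 2, 38 were lower and 2 higher (17.7% and 13.1% of all genes). These 3 comparisons share libraries with one another and with those against sgControl.

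**Figure D5:**
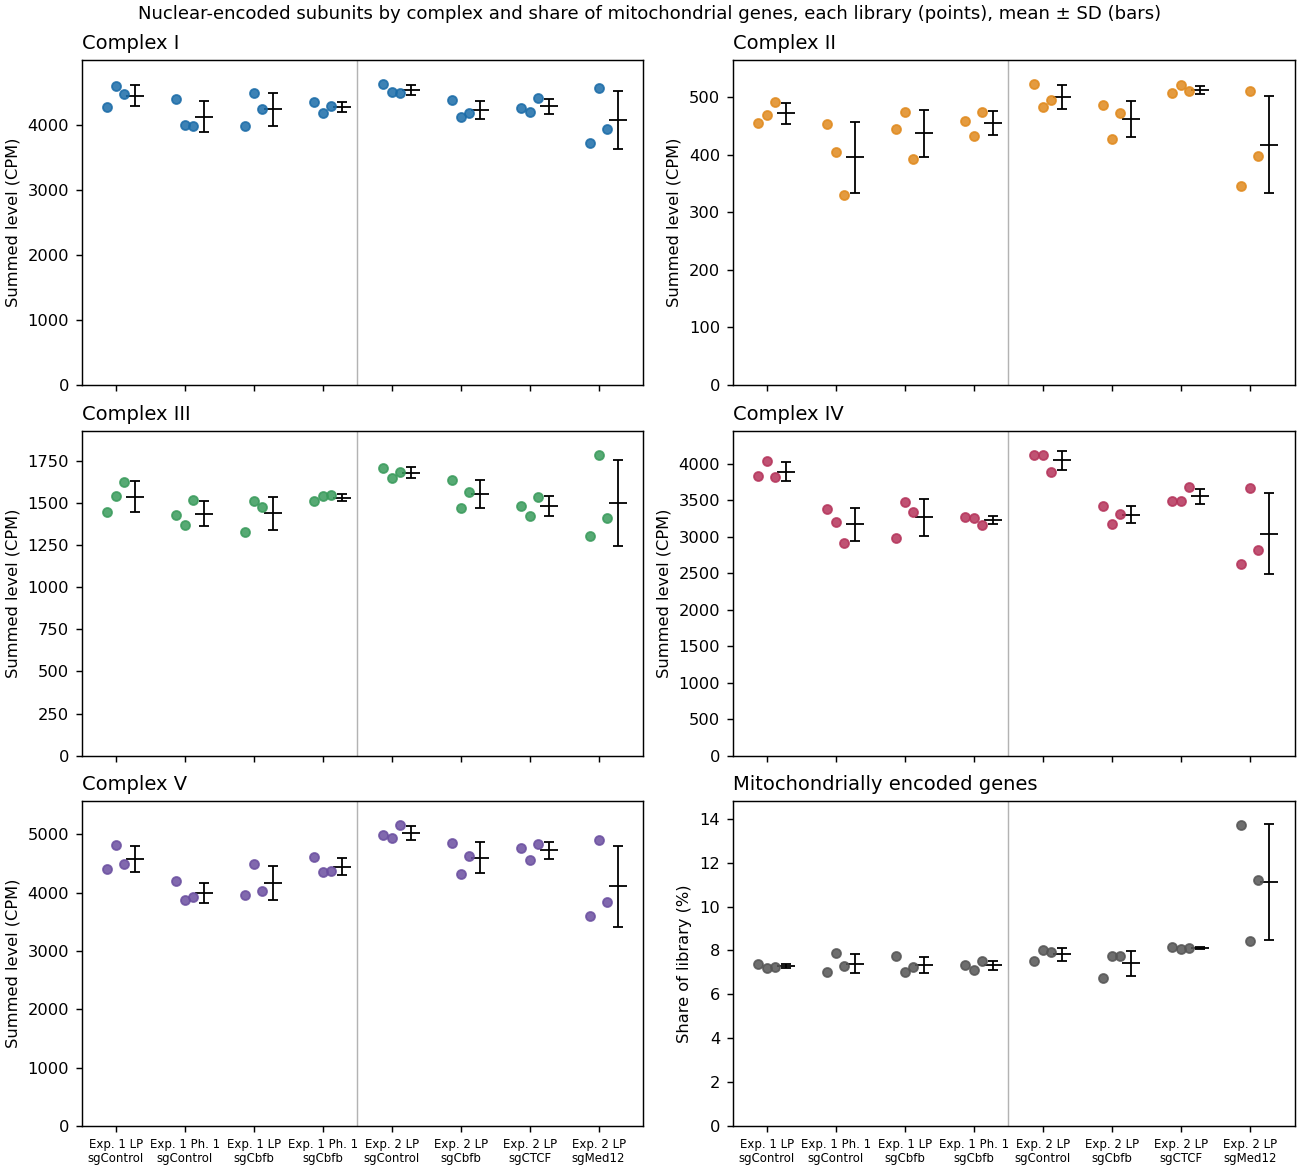
Summed CPM of all subunits of each complex, and the share of reads on mitochondrially encoded genes in percent (last panel), in each library (points) of the 8 groups with mean ± SD. Complex IV is lower in every Phase 1, sgCbfb, sgCTCF and sgMed12 library than in the LP controls of its experiment, and sgMed12 replicate 2 is the highest of its group for each of the 5 complexes.

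Summed by complex, with no test, complex IV lay below the LP controls of its experiment in every other group, and other complexes did so in some. Its sum was 3816 to 4039 CPM in sgControl LPs of experiment 1, 2978 to 3478 CPM in sgCbfb LPs, 2921 to 3377 CPM in sgControl Phase 1 cells and 3162 to 3272 CPM in sgCbfb Phase 1 cells. *Cox6a2* was part of this: it gave 14.2% to 15.8% of the complex IV reads in the first group and 4.93% to 5.47% in sgCbfb LPs. Without it, the sums of sgControl and sgCbfb LPs overlapped (3224 to 3418 and 2815 to 3294 CPM), while sgControl Phase 1 cells still lay below, at 2755 to 3181 CPM. In those Phase 1 cells complexes II and V also lay apart, by -16.1% and -12.5% beside -18.6% for complex IV, and complex V was 11.2% higher in sgCbfb than in sgControl Phase 1 cells. In experiment 2 the sums without *Cox6a2* still lay apart, at 3432 to 3610 CPM with sgControl, 3090 to 3344 CPM with sgCbfb, 3167 to 3337 CPM with sgCTCF and 2312 to 3397 CPM with sgMed12. Complexes I, III and V also lay apart there with sgCbfb (-6.89%, -7.41% and -8.51%, beside -18.3% for complex IV) and with sgCTCF (-5.54%, -11.9% and -6.02%, beside -12.1%). With sgMed12, complexes IV and V lay apart (-24.9% and -18.2%). Complex II did not separate with sgCbfb or sgCTCF, at 482 to 522.5 CPM with sgControl, 427 to 486.5 CPM with sgCbfb and 507 to 520.2 CPM with sgCTCF.

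Other isoforms limited to a few tissues had low values. *Cox7b2*, *Cox8c* and *Ndufa4l2* were listed at 0 in every library, and *Cox7a1*, *Cox6b2* and *Cox8b* had no more than 3.6 CPM. *Cox4i2*, a lung isoform of complex IV subunit 4, was listed at 0 in the 6 sgControl LP libraries. It was at 2.12, 1.94 and 0.73 CPM in sgControl Phase 1 cells and at 1.30, 5.03 and 12.4 CPM in sgCbfb Phase 1 cells, and did not pass in any comparison of experiment 1. In experiment 2, where it was not tested, sgCbfb libraries had 2.09, 3.49 and 0.50 CPM. The second *Atp5o* row and *Cox5b-ps* were the remaining subunits that were not tested.

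Genes around the chain were compared with the same controls, and shares of all genes that passed are given as lower and higher. The mitochondrially encoded *mt-Co2*, *mt-Co3*, *mt-Atp6*, *mt-Atp8* and *mt-Nd4l* were listed at 0 in all 24 libraries, so a listed 0 does not show that a transcript was absent. Of 8 tested mitochondrially encoded subunits, 4 rose with sgMed12, namely *mt-Nd4* (log2 fold change 0.78), *mt-Cytb* (0.74), *mt-Nd1* (0.66) and *mt-Nd5* (0.49), while *mt-Nd6* fell (-1.11, adjusted p = 0.0012). With sgCTCF *mt-Nd1* rose (0.62) and *mt-Nd6* fell (-0.97), and *mt-Nd6* also fell with Notch stimulation under sgControl (-0.74, adjusted p = 0.045). The shares of all genes were 4.7% and 2.53% with sgMed12, 4.2% and 6.13% with sgCTCF, 5.57% and 6.91% with sgCbfb in experiment 2, 1.09% and 1.76% with sgCbfb in LPs of experiment 1, 2.6% and 3.37% in Phase 1, and 3.23% and 3.26% for Notch stimulation with sgControl. Of 77 mitochondrial ribosome genes, 2 fell and 1 rose with sgMed12 (*Mrpl4* -0.61, *Mrps5* -0.48, *Mrpl20* 0.43), 2 fell and 1 rose with sgCbfb in experiment 2 (*Mrpl41* -0.59, *Mrpl51* -0.44, *Mrps18a* 0.51), 1 fell and 1 rose with sgCTCF (*Mrps2* -0.96, *Mrps16* 0.67) and 1 fell with Notch stimulation under sgControl (*Mrpl52* -0.63).

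Of 13 citric acid cycle genes, the succinyl-CoA ligase genes *Suclg1* (-0.42) and *Suclg2* (-0.83) fell with sgMed12, *Suclg1* fell with sgCbfb in experiment 2 (-0.39), and *Sucla2* rose with sgCbfb in LPs of experiment 1 (0.81, adjusted p = 0.049). With sgMed12 no assembly factor passed, of 16 tested for complex I, 4 for complex II, 6 for complex III, 19 for complex IV and 3 for complex V. With sgCbfb in experiment 2, *Timmdc1* (-0.66), *Ndufaf8* (-0.45) and *Cox20* (-0.35) fell and *Ndufaf5* rose (0.77), *Ndufaf3* fell with sgCTCF (-1.005), and *Lyrm7* fell with sgCbfb in Phase 1 (-2.63). Among 9 tested regulators of mitochondrial genes, *Yy1* fell (-0.38) and *Nrf1* rose (0.43) with sgMed12, *Myc* (-1.23) and *Ppargc1b* (-0.98) fell with sgCTCF, and *Myc* rose with sgCbfb in experiment 2 (0.81, adjusted p = 0.012). Of 11 genes for transcription and copying of mitochondrial DNA, *Polg* rose with sgCbfb in Phase 1 (0.95) and in experiment 2 (0.58). *Cyc1*, *Cycs* and *Ndufab1*, which encode cytochrome c1, cytochrome c and the acyl carrier protein of complex I, passed in no comparison. No gene of these lists passed for Notch stimulation with sgCbfb or for the difference of the sgCbfb effect between stages.

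Promoters of the subunits were searched for short motifs of factors known to act on mitochondrial genes. RefSeq promoters (250 bases before to 50 after the start, GRCm38.p6) were matched for 68 of the 87 subunits and compared with 27025 genes, by exact letters on both strands. AAGATGGCG, the YY1 core, stood in 10.3% of the subunits and 1.64% of all genes. CCGGAAGT, the core of ETS factors such as GABP, stood in 7.4% and 4.31%, the NRF1 core in 7.4% and 1.07%, and TGTGGT, the RUNX core, in 10.3% and 18.9%. The 2 subunits other than *Cox6a2* that kept their fall with sgMed12 in every setting are shown with these motifs in capitals, as ACTTCCGG (the reverse of the ETS core) in *Cox8a* at chr19:7217567-7217866 and ACCACA (the reverse of the RUNX core) in *Uqcrfs1* at chr13:30545267-30545566, both on the minus strand.
Cox8a: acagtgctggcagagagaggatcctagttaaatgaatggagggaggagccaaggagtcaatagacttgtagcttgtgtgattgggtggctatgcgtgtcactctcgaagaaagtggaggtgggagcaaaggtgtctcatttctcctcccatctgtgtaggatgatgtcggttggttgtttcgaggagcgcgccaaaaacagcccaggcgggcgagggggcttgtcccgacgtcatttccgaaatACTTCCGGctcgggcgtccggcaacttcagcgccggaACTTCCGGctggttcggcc
Uqcrfs1: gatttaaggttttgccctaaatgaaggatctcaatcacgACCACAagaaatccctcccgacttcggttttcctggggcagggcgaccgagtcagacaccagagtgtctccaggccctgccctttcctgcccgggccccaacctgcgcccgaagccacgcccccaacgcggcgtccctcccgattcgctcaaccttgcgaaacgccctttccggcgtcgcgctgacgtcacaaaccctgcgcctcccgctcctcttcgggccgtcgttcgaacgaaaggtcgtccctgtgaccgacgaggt
*Uqcrfs1* did not pass with sgCbfb in LPs of experiment 1 (-0.26, adjusted p = 0.8) or experiment 2 (-0.13, adjusted p = 0.67). A match of letters is a description and not a binding site.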

How the data were processed

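The authors prepared QuantSeq 3′ mRNA libraries, read them as 75 bp single reads, trimmed with fastp and mapped with STAR to mm10; whether counting used strand is not given in the sources used here, so genes with overlapping antisense exons (among those named, *Cox6a2*, *Ndufa2*, *Ndufa4l2*, *Ndufa11*, *Ndufa13*, *Ndufb1-ps*, *Ndufb5*, *Ndufb6*, *Ndufs1*, *Uqcrc2*, *Cox4i1*, *Cox5a*, *Atp5a1*, *Atp5d*, *Atp5md*, *Atp5pb* and *Atp5l*) may share reads, and *Atp5l*, *Atp5g2*, *Sdhd*, *Ndufs3* and *Ndufs5* may share reads with near copies. The deposited values are CPM per gene and library, although the files name them TPM: they are whole multiples of one step in each library, whatever the gene's length. Whole reads were recovered for 99.7% to 100.0% of values (tolerance 0.0011 CPM). No column belonged to another series.

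Groups and replicates came from the sample labels. Genes that reached 1 CPM in 3 or more of an experiment's libraries were fitted with limma 3.58.1 (R 4.3.3; trend) on log2(CPM + 1), the 4 groups of an experiment together, with Benjamini-Hochberg adjustment over all 13239 or 13177 genes. Fold changes are on that scale and understate changes of low genes; percent changes are of mean CPM. Called genes, by the study's thresholds, also had group means that differed by over 1 on the log2 scale, at least one of them above 10 CPM. Named were all called subunits, the 3 largest rises and falls among those that passed, 15 subunits followed in every comparison, tissue-limited isoforms, and of each other list at most 4 genes that passed. The members and lists were chosen with earlier results of these data known. The RUNX motif and the subunits named as fitted without a library were added after values were seen, as were those named for Phase 1 sgControl replicate 3.

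Alternatives were pseudocounts of 0.1 and 5, no filter, scaling by median of ratios, a stricter filter at a mean of 10 CPM, a total without mitochondrial genes, only the groups compared, a replicate block, each library left out, and edgeR 4.0.16 (quasi-likelihood, TMM) on the whole reads. edgeR passed 1, 2, 1 and 0 subunits for sgCbfb in LPs, sgCbfb in Phase 1, and Notch stimulation with sgControl and sgCbfb, and 2, 1 and 11 for sgCbfb, sgCTCF and sgMed12 in experiment 2. Replicate numbers were not used to pair samples in the main fit. Deviations from group means of same-numbered libraries correlated at -0.06 to 0.11, and in no pair of groups were all 3 over 0.1. Libraries with other numbers correlated at -0.11 to 0.09. In experiment 2, same-numbered libraries lay above the others for sgControl with sgCbfb (0.04 to 0.11 and -0.11 to -0.0). The same held for sgControl with sgCTCF (0.02 to 0.04 and -0.04 to -0.0). It did not hold for sgCbfb with sgMed12 (-0.06 to 0.01 and -0.05 to 0.09). A weak pairing in some groups was not tested beyond the replicate block. Replicates differed by more than sampling noise (chi-square per degree of freedom of 2.46 to 17.6). Sequences and positions came from GENCODE M21 and RefSeq, handled with Biopython 1.88, pandas 2.3.3, numpy 2.4.6 and scipy 1.17.1. The scripts were tested on simulated data, and plots were drawn with matplotlib 3.10.9.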

Additional observations from a re-analysis of the deposited data

Results flagged for a closer look

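The effect of sgCbfb on *Cox6a2* differed between Phase 1 cells and LPs by 1.22 on the log2 scale (SE 0.19; limma interaction, adjusted p = 0.0012). All sgCbfb libraries were below all sgControl libraries of the same stage, and it fell by 71.0% in LPs and fell by 32.3% in Phase 1 cells. The Phase 1 control level of 196 CPM was already below the LP control level of 589 CPM. *Cbfb* mRNA was 40.2 CPM with sgCbfb and 86.5 CPM with sgControl in LPs (limma, adjusted p = 0.0055), and 53.9 and 66.5 CPM in Phase 1 cells (adjusted p = 0.59). Its part in the difference between stages was not tested.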

How the results depend on the processing

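Over 1154 refits of single subunits, 884 kept their side of the threshold, 270 lost it and none reversed. The count of subunits that passed moved by over 1.5 times as follows, and the cause was not tested. For sgCbfb in Phase 1 cells (1) it was 0 with only the groups compared, 3 with the replicate block and 2 with edgeR. For Notch stimulation with sgControl (3) it was 1 with no filter, scaling by median of ratios, a fit of only the groups compared, or edgeR, and 5 with the block. For experiment 2, fits of only the groups compared gave 7 for sgCbfb (2), 18 for sgCTCF (1), 3 for sgMed12 (18), 4 for sgMed12 against sgCbfb (7) and 6 for sgMed12 against sgCTCF (14). A total without mitochondrial genes gave 4 for sgCbfb, no filter gave 5 for sgMed12 and 8 for sgMed12 against sgCTCF, and edgeR gave 11 and 9 for those. The replicate block pairs libraries by replicate number. It gave 1 for sgCbfb in LPs of experiment 1 and 0 for Notch stimulation with sgCbfb. In experiment 2 it gave 2 for sgCbfb, 1 for sgCTCF and 18 for sgMed12.

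Leaving out 1 library at a time gave 1 to 1 for sgCbfb in LPs of experiment 1, 0 to 5 in Phase 1 (5 without sgControl replicate 1, 3 without sgControl replicate 3, 0 without sgCbfb replicate 1 or 3), 1 to 8 for Notch stimulation with sgControl (8 without Phase 1 sgControl replicate 1, 1 without any LP library other than sgCbfb replicate 1, or any Phase 1 sgCbfb library), 0 to 0 with sgCbfb, and 1 to 2 for the interaction (2 without Phase 1 sgControl replicate 1 or 2). In experiment 2 it gave 1 to 7 for sgCbfb (7 and 4 without sgMed12 replicate 2 and 1, 1 without sgCbfb replicate 2 or 3 or sgControl replicate 1 or 2) and 1 to 10 for sgCTCF (10 and 2 without sgMed12 replicate 2 and 1, 2 without sgCTCF replicate 3). For sgMed12 it gave 3 to 49 (49 without sgMed12 replicate 2, 3 without replicate 1 or 3, 4, 7 and 7 without sgControl replicates 1, 2 and 3). For sgCTCF against sgCbfb it gave 4 to 9 (4 without sgCTCF replicate 3 or sgCbfb replicate 2 or 3). sgMed12 against sgCbfb gave 3 to 42 (42 without sgMed12 replicate 2, 3 or 4 without sgMed12 replicate 1 or 3 or any sgCbfb library) and sgMed12 against sgCTCF 3 to 40 (40 without sgMed12 replicate 2, 6 and 3 without replicates 1 and 3, 8 without any sgCTCF library). Calls ranged from 0 to 1 for sgCbfb in Phase 1 and sgMed12 against sgCTCF, 0 to 3 for sgMed12, and 1 to 2 for Notch stimulation with sgControl and the interaction.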
